A study of Mus musculus with 3 samples.

Results

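The levels of 9 genes, 8 of them encoding citrate cycle enzymes or their cytosolic relative and the other encoding ATP-citrate lyase, were followed in the RNA of mouse macrophages. The genes were Cs, Idh1, Idh2, Idh3a, Ogdh, Suclg1, Fh1, Mdh2 and Acly, taken by symbol from a list. That list was chosen with earlier results of these data known. All 9 were found among the 55536 annotated genes. The cells were macrophages grown from C57BL/6J bone marrow, given 100 ng/ml Lipid A for 10 minutes, and the RNA was that of their cytosolic fraction, depleted of ribosomal RNA, from 1 µg per library. Lipid A is the lipid anchor of bacterial lipopolysaccharide and the ligand of the receptor TLR4. The series held this single group with 3 biological replicates, all under 1 donor identifier. Since separate animals or cultures are not named for them in the labels, every test below measures the spread between these samples only. Without untreated cells, each value is a level 10 minutes after stimulation, and no response to Lipid A can be read from it.

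The citrate cycle oxidises the acetyl group of acetyl-CoA in the mitochondrial matrix and passes the electrons to the respiratory chain. Citrate can also leave the mitochondrion, and ATP-citrate lyase then splits it in the cytosol into oxaloacetate and acetyl-CoA, the building block of fatty acids and sterols and the donor for protein acetylation. In macrophages, succinate, itaconate and citrate from this cycle are known as signals and effectors of the inflammatory state, and the enzymes themselves are encoded in the nucleus and translated from cytosolic messenger RNA.

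The gene tables held 33825547 expected counts for replicate 1, 54667365 for replicate 2 and 43176007 for replicate 3, of which the 9 genes took 0.0946%, 0.0937% and 0.0980%. All 8 macrophage markers, among them Lyz2, Csf1r and Adgre1, were at 1 TPM, a length-corrected measure of abundance, or more in every library, with sums of 9030, 7867 and 8695 TPM. Of the neutrophil markers 2 of 6 (S100a8 and S100a9) reached 1 TPM in every library, with sums over the list of 21.86, 35.21 and 33.07 TPM in replicates 1, 2 and 3 and Ly6g at 0. Of the dendritic cell markers 1 of 5 (Batf3) reached it with sums of 1.88 to 1.95 TPM, and of the B cell markers 1 of 4 (Ighm) with sums of 4.47 to 5.74 TPM. None of 4 T and NK cell markers (sums of 0.13 to 0.2 TPM) and none of 4 adipocyte and stromal markers (sums of 0.04 to 0.05 TPM) reached it. The libraries differed in 2 further lists. Nuclear long noncoding RNAs, led by Malat1, summed to 918 TPM in replicate 1, 480 TPM in replicate 2 and 400 TPM in replicate 3, and 10 cell division genes, such as Mki67 and Top2a, summed to 75.9, 87.8 and 150 TPM. Replicate 1 thus had the highest nuclear RNAs and the lowest neutrophil markers, with 166, 313 and 261 normalised counts for S100a8 and 285, 517 and 420 for S100a9, and replicate 3 had the highest cell division genes. The part of any of these in the differences between libraries given below was not tested.

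The cytosolic NADP-dependent isocitrate dehydrogenase gene Idh1 was the highest of the 9. Idh1 (ENSMUSG00000025950.16, chr1:65158616-65186500, minus strand) has separate annotated starts, and nearly all of its TPM lay in transcripts from the downstream one. That transcript, Idh1-201, held 97.7%, 98.4% and 98.5% of the gene's TPM in replicates 1, 2 and 3. The 5 annotated transcripts that start within 100 bases of the upstream start held 2.32%, 1.60% and 1.47%. In a second quantification, made by the authors from the reads directly, the downstream start held 95.6%, 97.7% and 97.2%, and the upstream start 3.70%, 2.32% and 2.78%. The windows around both starts are shown because they belong to transcripts of such unequal use. They are RefSeq sequences of GRCm38.p6, each from 250 bases before to 50 bases after the start, on the minus strand, at chr1:65179093-65179392 for the downstream and chr1:65186430-65186729 for the upstream start. Capitals mark GC boxes (GGGCGG on either strand).
Idh1 downstream start: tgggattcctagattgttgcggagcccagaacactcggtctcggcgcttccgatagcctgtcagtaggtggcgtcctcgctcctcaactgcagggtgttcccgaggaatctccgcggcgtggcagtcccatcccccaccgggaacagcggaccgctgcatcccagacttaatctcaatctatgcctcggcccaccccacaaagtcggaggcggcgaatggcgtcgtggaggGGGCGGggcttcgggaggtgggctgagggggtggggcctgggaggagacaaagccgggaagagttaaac
Idh1 upstream start: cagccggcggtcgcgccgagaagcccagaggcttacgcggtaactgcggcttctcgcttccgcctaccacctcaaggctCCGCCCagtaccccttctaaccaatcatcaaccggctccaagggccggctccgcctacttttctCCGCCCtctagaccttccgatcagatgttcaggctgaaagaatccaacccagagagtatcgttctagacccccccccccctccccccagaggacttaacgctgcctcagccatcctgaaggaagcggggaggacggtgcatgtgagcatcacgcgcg
The window of the much used start held 1 GC box and that of the little used start 2.

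Of the other members, 7 had RefSeq windows, which made 14 windows over 8 genes with those of Idh1. GGGCGG on either strand was found in the windows of 7 of the 8 genes (11 of 14 windows), against 35.7% of all 32851 windows of that length. CCAAT on either strand was in windows of 6 genes (11 of 14 windows), against 37.4% of all windows. TATAAA was in none, against 13.6% of all windows. The cyclic AMP response element TGACGTCA was in windows of Mdh2 and Ogdh (4 of 14 windows, against 1.79% of all windows). The E-box CACGTG was in windows of Ogdh only (3 of 14 windows, against 7.15% of all windows). The motif of NRF1, the letters TCAAGGTCA of oestrogen-related receptors and the sterol response letters TCACNCCAC were in none of the 14 windows, against 0.971%, 0.423% and 1.24% of all windows. The letters ACGT are common to TGACGTCA and CACGTG, and a match describes letters and not a bound site. Windows of 1 gene can overlap almost wholly, as those of Ogdh at chr11:6291347-6291646, 6291356-6291655 and 6291409-6291708 do. The counts of windows can thus hold the same stretch more than once, and the counts of genes do not. By starts within 100 bases, not every window belonged to the transcripts with most of a gene's TPM. No annotated transcript of Suclg1, the gene without GGGCGG, started within 100 bases of its RefSeq start. Transcripts starting within 100 bases of that of Mdh2 held 27.0%, 35.4% and 34.6% of its TPM in the 3 replicates in order. In the second quantification they held 8.62%, 15.5% and 12.6%.

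Idh1 makes NADPH and 2-oxoglutarate outside the mitochondrion. Its level was 59.09 TPM in replicate 1, 63.06 TPM in replicate 2 and 73.53 TPM in replicate 3, a mean of 65.2 ± 7.46 TPM (SD, n = 3), on 8000, 13338 and 11448 expected counts. This was above 94.1% of the protein-coding genes that averaged at least 1 TPM. Its mitochondrial counterpart Idh2 (ENSMUSG00000030541.16, chr7:80094846-80115392, minus strand), which makes NADPH in the matrix, had 20.30, 21.60 and 24.49 TPM, a mean of 22.1 ± 2.14 TPM. Idh1 was above Idh2 in all 3 libraries with no overlap, 2.94 ± 0.05-fold by TPM. The difference on the log2(TPM + 1) scale was 1.52 ± 0.03, with p = 0.25 by an exact sign-flip permutation test, two-sided, the lowest value within reach of 3 libraries. Over the 15 within-library differences tested in this way the Benjamini-Hochberg adjusted p of the exact test was also 0.25, so each is described by its size and by the libraries that share its sign. In the second quantification the ratio of Idh1 to Idh2 was 3.05 ± 0.07. Idh1 also stood 5.37 ± 0.02-fold above the cytosolic aconitase gene Aco1, whose enzyme supplies isocitrate to IDH1, in the same direction in all 3 libraries.

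The 3 protein-coding genes with the levels closest to Idh1 over the 3 libraries, by Euclidean distance of log2(TPM + 1), were the fatty acid binding protein gene Fabp4 (distance 0.043; 59.52, 61.64 and 72.18 TPM), Tlr13, a receptor for bacterial ribosomal RNA (0.056), and Serinc1 (0.074). For Idh3a, the lowest member, they were Tnip2 (0.034), Eif1ad (0.039) and the cell cycle factor gene E2f1 (0.039). With 3 libraries of 1 condition this likeness is one of level.

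Mdh2 (ENSMUSG00000019179.10, chr5:135778480-135790398, plus strand), whose malate dehydrogenase regenerates oxaloacetate in the matrix, was the second highest at 32.29, 36.30 and 41.84 TPM, a mean of 36.8 ± 4.795 TPM (SD, n = 3). Replicate 3 was highest and replicate 1 lowest. The gene of the cytosolic malate dehydrogenase, Mdh1, averaged 27.4 ± 1.93 TPM. The ratio of Mdh2 to Mdh1 was 1.34 ± 0.09, above 1 in all 3 libraries, but 1.01 ± 0.08 in the second quantification, so the order of both genes rested on the quantification used.

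Cs (ENSMUSG00000005683.8, chr10:128337734-128362479, plus strand) encodes citrate synthase, which joins acetyl-CoA to oxaloacetate. It had 27.32, 25.97 and 28.71 TPM, a mean of 27.3 ± 1.37 TPM (SD, n = 3), on 4871, 7180 and 5878 expected counts. Acly (ENSMUSG00000020917.17, chr11:100476353-100528000, minus strand), which splits citrate again in the cytosol, had 23.79, 25.88 and 26.44 TPM, a mean of 25.4 ± 1.40 TPM. Acly was below Cs in each library, and by very little in replicate 2. The difference of Acly minus Cs was -0.10 ± 0.09 on the log2(TPM + 1) scale, with p = 0.25 by the exact sign-flip permutation test, the smallest that 3 libraries allow. In the second quantification it turned to 0.010, with p = 1 by the same exact test, so an order of the 2 genes was not established. The mitochondrial citrate carrier gene Slc25a1, which brings ACLY its substrate, averaged 17.2 ± 1.86 TPM, and the ratio of Acly to it was 1.48 ± 0.08.

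Idh3a (ENSMUSG00000032279.11, chr9:54586334-54604661, plus strand) encodes the catalytic subunit of the NAD-dependent isocitrate dehydrogenase of the matrix and was the lowest of the 9. Its level was 4.25 TPM in replicate 1, 4.46 TPM in replicate 2 and 5.75 TPM in replicate 3, a mean of 4.82 ± 0.812 TPM (SD, n = 3), on 506, 869 and 807 expected counts. It was above 35.8% of the protein-coding genes that averaged at least 1 TPM. The genes of its partner subunits were higher in each library, with Idh3b at 22.40, 20.21 and 23.09 TPM and Idh3g at 18.67, 17.08 and 19.63 TPM. The ratio was 0.220 ± 0.030 for Idh3a to Idh3b and 0.261 ± 0.033 for Idh3a to Idh3g, with p = 0.25 for each by the exact sign-flip permutation test, the smallest possible. In the second quantification the ratios were 0.238 and 0.274. The NADP-dependent Idh2 was 4.63 ± 0.320-fold above Idh3a.

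Ogdh (ENSMUSG00000020456.17, chr11:6291633-6356642, plus strand), the gene of the E1 subunit of the 2-oxoglutarate dehydrogenase complex, had 23.49, 21.91 and 24.45 TPM, a mean of 23.3 ± 1.28 TPM (SD, n = 3). The other subunits averaged 18.4 ± 0.510 TPM for Dlst, the E2 subunit, and 15.7 ± 1.97 TPM for Dld, the E3 subunit that other dehydrogenase complexes share. The ratio of Ogdh to Dlst was 1.27 ± 0.04 and that of Ogdh to Dld 1.501 ± 0.190, above 1 in all 3 libraries. Ogdhl, a relative of Ogdh, was at 0.01 to 0.04 TPM.

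Suclg1 (ENSMUSG00000052738.14, chr6:73248382-73276911, plus strand) encodes the alpha subunit common to both succinyl-CoA ligases and had 11.57, 11.94 and 13.73 TPM, a mean of 12.4 ± 1.16 TPM (SD, n = 3). Of the genes of the beta subunits, Sucla2 of the ATP-forming enzyme averaged 9.95 ± 0.993 TPM and Suclg2 of the GTP-forming enzyme 3.52 ± 0.469 TPM. Suclg1 was 1.25 ± 0.04-fold above Sucla2 and 3.54 ± 0.14-fold above Suclg2, and 2.64-fold above Suclg2 in the second quantification. Fh1 (ENSMUSG00000026526.14, chr1:175600374-175625635, minus strand), the fumarase gene, had 10.27, 8.87 and 9.73 TPM, a mean of 9.62 ± 0.706 TPM. Its deposited TPM intervals overlapped among all 3 libraries. Of the 4 genes of succinate dehydrogenase, the enzyme between both in the cycle, Sdha averaged 42.1 ± 2.72 TPM, Sdhb 40.2 ± 4.97 TPM, Sdhc 25.3 ± 2.83 TPM and Sdhd 39.6 ± 2.62 TPM. Each was above the means of Suclg1 and Fh1.

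**Figure D1:**
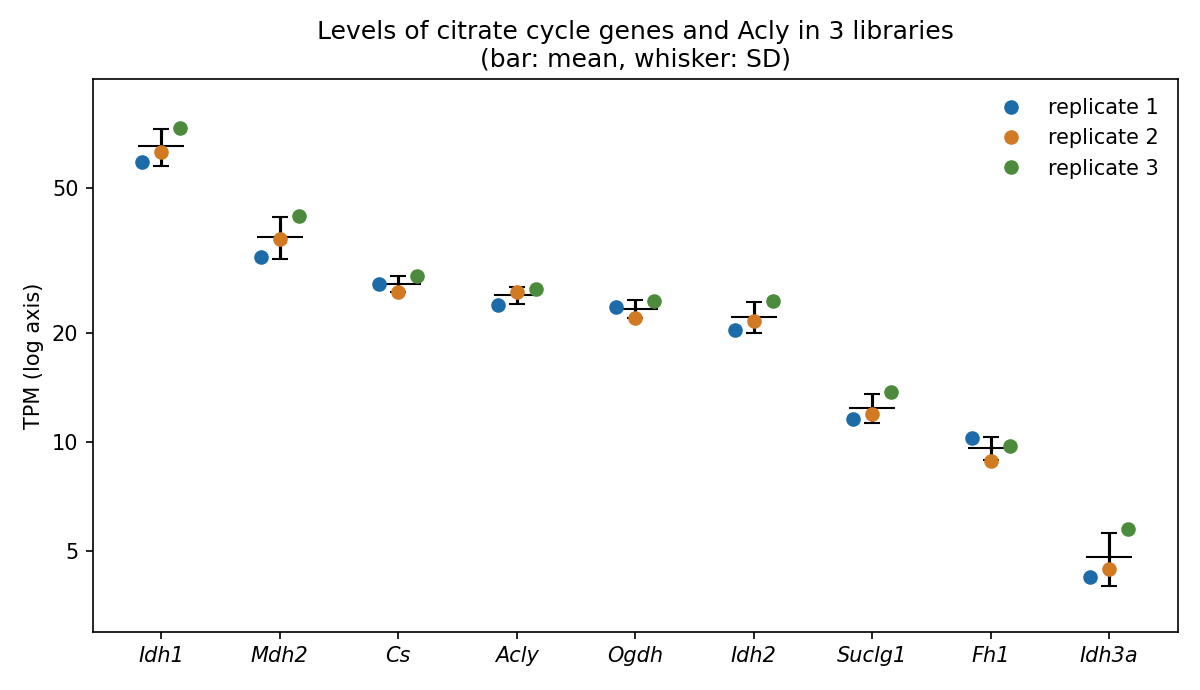
TPM (log axis) of the 9 members, ordered by their mean, with a point for each of the 3 libraries, a bar for the mean and a whisker for the SD. Idh1 lies at 59.09 to 73.53 TPM, the other 7 lie between 8.87 and 41.84 TPM with close neighbours from Cs to Idh2, and Idh3a lies at 4.25 to 5.75 TPM.

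The order from Idh1 over Mdh2, Cs, Acly, Ogdh, Idh2, Suclg1 and Fh1 to Idh3a was the same in replicates 1 and 2. In replicate 3 Idh2 stood above Ogdh, and their difference (Ogdh minus Idh2, 0.07 ± 0.11 on the log2(TPM + 1) scale) was within its spread. The other neighbours kept 1 sign in all libraries with a mean difference over its SD, although Cs over Acly (0.10 ± 0.09) and Acly over Ogdh (0.12 ± 0.11) only just did. The second quantification had Acly above Cs in replicate 2 and Fh1 above Suclg1 in replicate 1, and was otherwise in the order of the means. The deposited TPM of the second quantification was highest in replicate 1, with Idh1 at 42.7, 23.6 and 23.5 TPM and Idh3a at 3.02, 1.73 and 1.89 TPM, while its protein-coding genes took 17.2%, 8.95% and 8.11% of the scale. When the TPM of both quantifications was rescaled over protein-coding genes, the second differed from the first by a log2 ratio of 0.20 for Fh1 and -0.14 for Mdh2, and by -0.08 to 0.04 for the other 7. All 9 ratios lay between the 5th and 95th percentiles of the 9211 genes compared, -0.147 and 0.368.

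Idh1, Cs, Suclg1 and Idh2 were each carried almost wholly by a single annotated transcript. In the first quantification, Cs-201 held 99.9% of the TPM of Cs, Suclg1-201 99.3% of that of Suclg1 and Idh2-201 98.0% of that of Idh2, and in the second 99.8%, 97.2% and 98.2%. Acly, Ogdh, Fh1, Mdh2 and Idh3a were divided among transcripts. For Acly, Acly-203 held 48.3% ± 7.19 (SD, n = 3) and Acly-207 44.3% ± 3.77 in the first quantification. The second gave Acly-203 43.7% ± 6.05, Acly-201 24.4% ± 10.0, Acly-207 19.6% ± 7.85 and Acly-202 10.2% ± 3.42.

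Among these transcripts differ a short coding exon of Acly, at chr11:100503160-100503189 of mm10 on the minus strand, and a pair of coding exons of Ogdh that replace each other, at chr11:6316765-6316855 and chr11:6316978-6317080 on the plus strand. They are shown whole because the main transcripts of both genes differ in them, in the letters of the annotated transcripts, with no part set in capitals. These transcripts differ in their starts as well. Ogdh-202 does not start within 100 bases of the RefSeq starts of Ogdh-201, nor Acly-207 within 100 bases of that of Acly-203. The exon shares below were not separated from the use of these starts.
Acly 30-base exon: attcagtcccaagtccaagatccctgcaag
Ogdh 91-base exon: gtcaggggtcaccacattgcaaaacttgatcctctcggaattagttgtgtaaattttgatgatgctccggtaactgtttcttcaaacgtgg
Ogdh 103-base exon: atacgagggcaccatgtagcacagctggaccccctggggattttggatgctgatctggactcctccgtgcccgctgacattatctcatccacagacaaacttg
Transcripts with the 30-base exon of Acly held 41.0% of the TPM of the transcripts compared in replicate 1, 51.0% and 54.6% in replicates 2 and 3, a mean of 48.8% ± 7.04 (SD, n = 3). The second quantification gave 47.2%, 58.8% and 59.0%. Both thus assigned a large share of Acly to transcripts with the exon and a large share to transcripts without it, with replicate 1 lowest. The exon leaves the reading frame in phase, its length being a multiple of the codon length. The 103-base exon of Ogdh was in transcripts with 87.5%, 89.9% and 90.7% of the TPM, a mean of 89.4% ± 1.67, and the 91-base exon in those with 12.5%, 10.1% and 9.31%. In the second quantification the means were 89.0% and 11.0%. Ogdh-201, with the longer exon, alone held 87.1% ± 1.92 of the gene's TPM, and Ogdh-202, with the shorter one, 10.0% ± 1.57.

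Fh1 and Mdh2 were divided as well. Fh1-201, the full-length transcript, held 62.0% ± 6.25 (SD, n = 3) of the TPM of Fh1 and the 542-base Fh1-205 held 37.7% ± 5.90, yet Fh1-205 rested on 88.3, 105 and 76.5 expected counts against 898, 1401 and 1192 for Fh1-201. The second quantification gave Fh1-201 49.3%, Fh1-205 38.0% and Fh1-204, annotated for nonsense-mediated decay, 11.7%, while the first gave Fh1-204 no counts. For Mdh2, Mdh2-201 held 67.7% ± 4.63 and Mdh2-203, also annotated for nonsense-mediated decay, 31.7% ± 4.90 in the first quantification, against 87.8% ± 3.44 and 10.7% ± 4.53 in the second. The 169-base exon at chr5:135783305-135783473 that Mdh2-203 lacks was therefore included at 68.1% in the first and 89.0% in the second, a difference larger than the SD over libraries in either.

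Idh3a was divided among several transcripts in both quantifications. In the first quantification Idh3a-203, annotated as having a retained intron, held 44.1% ± 5.09 of its TPM, Idh3a-205 29.4% ± 7.27 and Idh3a-201 23.8% ± 14.6, and in the second Idh3a-204, annotated for nonsense-mediated decay, held 46.0% ± 14.6, Idh3a-203 24.9% ± 14.2 and Idh3a-205 22.4% ± 6.33. Transcripts that end 716 bases before the longest annotated end held 53.5%, 38.7% and 44.7% in the first quantification and 73.3%, 70.1% and 69.2% in the second. Which transcripts carried Idh3a was thus not settled by these files, although its gene level differed by a log2 ratio of 0.02 between the quantifications.

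**Figure D2:**
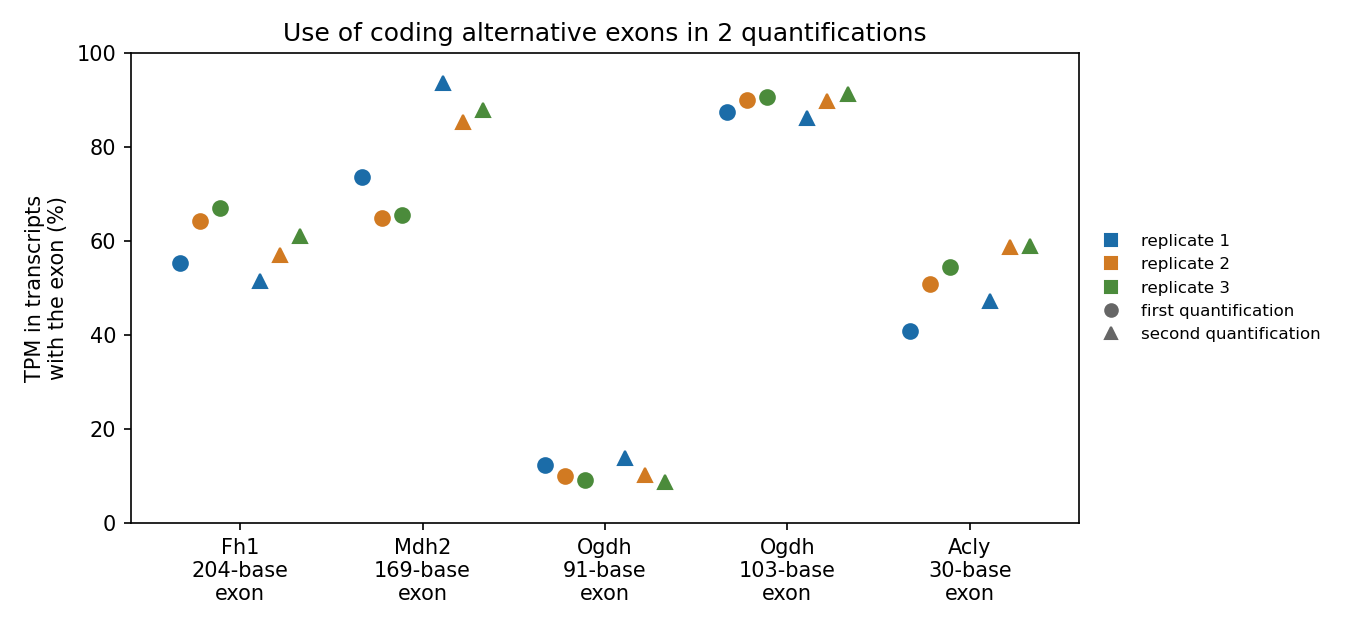
Share of TPM (%) in transcripts that include each of 5 coding alternative exons, for 3 libraries in the first (circles) and second (triangles) quantification. The Ogdh exons lie at 9.31 to 12.5% and 87.5 to 90.7% in the first quantification with similar values in the second, the Acly exon near the middle in both, and the Mdh2 exon at 68.1% in the first and 89.0% in the second on average.

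The members shared little sequence with any single gene outside the 9, counted in stretches of 31 bases and not in reads. The members, Idh1 and Idh2 among them, were not compared with each other. Idh1, Idh2, Idh3a, Ogdh and Acly shared no stretch of 31 bases with the transcripts of genes outside the 9. Cs shared 4.33% of its stretches with its copy Csl, which had 0, 0 and 1 counts. Suclg1 shared at most 0.884%, Fh1 at most 0.557% and Mdh2 at most 0.249% with any gene outside the 9. Some stretches of Suclg1 were found in 714 genes and some of Cs in 291. The share that all these genes held together was not computed. Fh1 overlaps Kmo, a gene of tryptophan breakdown on the opposite strand, with 187, 242 and 150 counts. Since the strandedness of the libraries is not given in the sources used here, reads of Fh1 and Kmo in the overlap may not have been told apart. In transcript sequence this overlap is small, as the limit of 0.557% for Fh1 came from a search of both strands. Idh2 holds the same-strand entry Gm45203, with 9, 2 and 3 counts.

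The members were then set beside other genes of the same metabolism. The median level of the members was 23.3 ± 1.30 TPM (SD, n = 3), that of 13 other cycle genes 18.7 ± 0.930 TPM, and that of all 9374 protein-coding genes averaging at least 1 TPM 7.28 ± 0.423 TPM. Members minus other cycle genes was 0.30 ± 0.01 on the log2(TPM + 1) scale, positive in all 3 libraries, with p = 0.25 by the exact sign-flip permutation test, the smallest possible. It was 0.089 when only genes averaging at least 1 TPM were kept, which removed Ogdhl and Csl from the other cycle genes. Members minus 11 respiratory chain genes was -0.31 ± 0.10 and members minus 14 glycolysis genes -1.54 ± 0.19, both negative in all 3 libraries with the same p of 0.25 by that exact test. The glycolysis list had a median of 70.0 ± 10.1 TPM, led by Gapdh (312 ± 26.5 TPM), Aldoa (167 ± 14.3 TPM), Pkm (119 ± 16.5 TPM) and Ldha (110 ± 13.2 TPM), with Hk2, Pfkp and Pfkl at its low end. Pfkl, the lowest, averaged 5.05 ± 0.364 TPM, beside 4.82 ± 0.812 TPM for Idh3a.

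At 1 TPM or more in each library were 11 of the 13 genes of pyruvate entry, whose median was 5.25 ± 0.782 TPM. The mitochondrial pyruvate carrier gene Mpc1 averaged 74.1 ± 5.91 TPM, above Idh1. The pyruvate dehydrogenase subunit genes Pdha1 and Pdhb averaged 13.6 ± 1.26 and 14.4 ± 0.526 TPM, each below Cs, which takes the acetyl-CoA they make. Pyruvate carboxylase, the other entry of pyruvate, had its gene Pcx at 0.11, 0.09 and 0.28 TPM, and the kinase gene Pdk4 had 0, 1 and 0 counts. Among the kinases that inhibit pyruvate dehydrogenase, Pdk1 was the highest at 5.25 ± 0.782 TPM.

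Of the 8 genes of cytosolic citrate use, 7 reached 1 TPM in every library. Beyond Acly, the sterol pathway gene Hmgcs1 averaged 36.3 ± 5.74 TPM, the fatty acid synthase gene Fasn 7.78 ± 0.856 TPM and the acetyl-CoA carboxylase gene Acaca 6.11 ± 0.297 TPM. Acss2, whose enzyme makes cytosolic acetyl-CoA from acetate, averaged 2.24 ± 0.240 TPM, and malic enzyme 1 (Me1) 0.277 ± 0.012 TPM. Of the 12 genes at branches of the cycle, 11 reached 1 TPM in every library. The highest was Glud1, which makes 2-oxoglutarate from glutamate, at 41.4 ± 1.43 TPM. Acod1, which makes itaconate from aconitate and is known to be strongly induced by lipopolysaccharide, had 1.51, 3.03 and 3.95 TPM, below every member in each library.

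**Figure D3:**
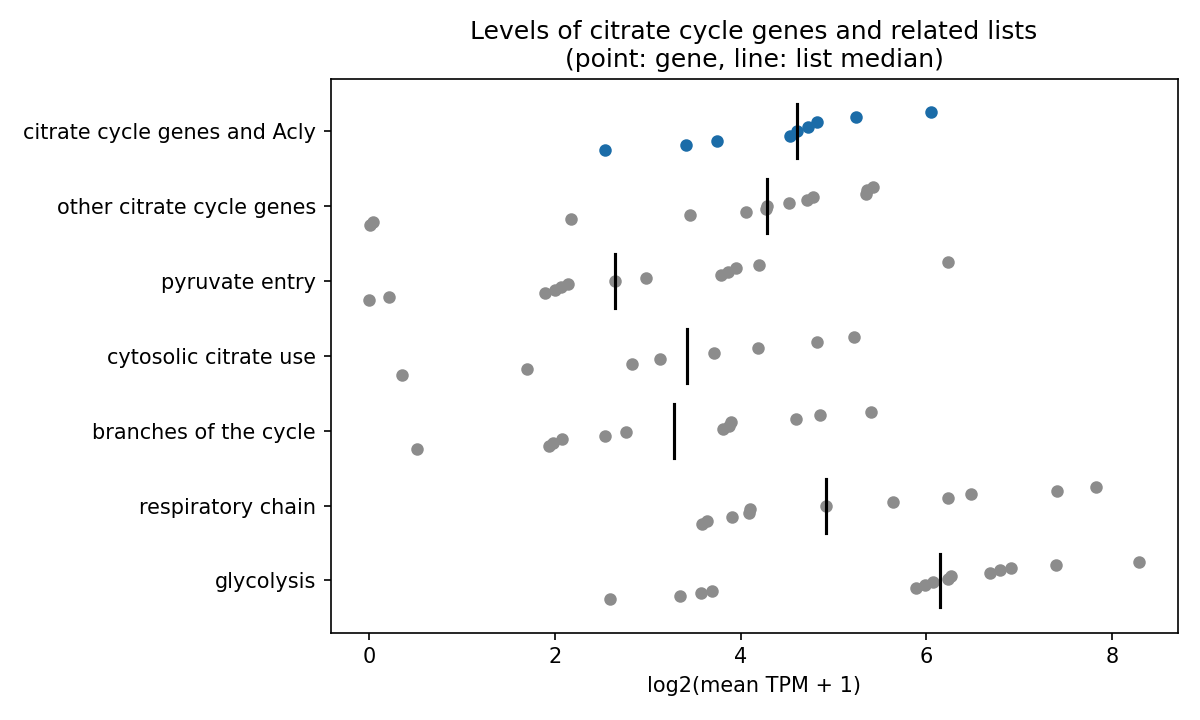
Mean level of each gene as log2(TPM + 1) in the members and in 6 other lists, with a line at each list's median of these values. The members lie between Idh3a and Idh1, with a median above those of the other cycle genes, pyruvate entry, cytosolic citrate use and cycle branches, and below those of the respiratory chain and glycolysis.

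Whether the members differed between libraries beyond counting error was tested on counts scaled by TMM, a method that sets library sizes from the bulk of genes. For Idh1 the normalised counts were 9930 in replicate 1, 11017 in replicate 2 and 11638 in replicate 3, for Mdh2 2969, 3420 and 3576, for Idh2 2473, 2735 and 2847, and for Idh3a 628, 718 and 820. In each of these replicate 1 was lowest and replicate 3 highest. The same held for Suclg1 with 1215, 1313 and 1361 and for Fh1 with 1229, 1246 and 1289. For Acly they were 7853, 8824 and 8278, with replicate 2 highest. For Cs they were 6046, 5931 and 5976 and for Ogdh 7357, 7118 and 7250, with the libraries within a few percent of each other and replicate 1 highest.

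A chi-square test with Benjamini-Hochberg adjustment over all genes called 6 of 9 members (adjusted p under 0.05), beside 50.1% of the 13494 genes tested and 63.7% of the 6564 genes with at least the 2182 counts of Idh3a, the least covered member. The members' share was thus near that of equally deep genes. The adjusted p of the chi-square test was 1.74e-25 for Idh1, 5.10e-12 for Acly, 4.73e-11 for Mdh2, 2.80e-05 for Idh2, 4.72e-05 for Idh3a and 0.0487 for Suclg1. It was 0.211 for Ogdh, 0.575 for Fh1 and 0.660 for Cs. The differences were small: the highest library exceeded the lowest by 1.02-fold (Cs) to 1.31-fold (Idh3a), with a median of 1.12 over the members and 1.11 over equally deep genes. The median of the members' own biological coefficients of variation, from an intercept-only edgeR model, was 6.91%. The single common value of that model over all genes tested was 14.4%. It is another measure and covers genes of far fewer counts, so the members cannot be called steadier from it.

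Replicate 1 had the lowest normalised count for 7 of 9 members, beside 45.8% of all genes tested and 51% of equally deep genes, and these included all 6 that were called, a combination found for 25.2% of all genes and 35.7% of equally deep genes. Replicate 3 had the highest normalised count for 6 of 9 members, beside 37.1% of all genes tested, and the highest TPM for 8 of 9, beside 66.1% of genes averaging at least 1 TPM. Without replicate 1 the chi-square test called 3 members, Idh1, Acly and Idh3a, beside 27.5% of genes, and without replicate 2 it called 6, beside 42.2% of genes. Without replicate 3 it called 4, beside 35.5% of genes, and neither Idh3a (adjusted p = 0.0603) nor Suclg1 (adjusted p = 0.163) was among them in that chi-square test. Suclg1 was also not called with DESeq2 size factors (adjusted p = 0.0941 in the same chi-square test), with which Ogdh was (adjusted p = 0.0459), beside 49.7% of genes. The second quantification called 7 of 9, Cs being added with an adjusted p of 0.0478 by chi-square test, beside 58.9% of genes. In replicate 1, the lowest library for most members, nuclear noncoding RNAs were highest and neutrophil markers lowest, and in replicate 3 cell division genes were highest, as given above. Among related genes the same chi-square test called 8 of 11 other cycle genes, 7 of 12 of pyruvate entry and 7 of 8 of cytosolic citrate use. At branches of the cycle it called 7 of 11, in glycolysis 11 of 13 and in the respiratory chain 10 of 11. These counts stand beside 50.1% of all genes tested and 63.7% of equally deep genes. Of the 8 called cycle genes, all were lowest in replicate 1, among them Dld, Sdha, Sdhb and Sdhc. So were 10 of the called glycolysis genes and 10 of the called respiratory chain genes. Called and lowest in replicate 1 were 25.2% of all genes and 35.7% of equally deep genes, as given above. Acod1 had the widest spread of these lists among the genes called, 2.46-fold (adjusted p = 5.51e-33 by chi-square test), with 297, 615 and 730 normalised counts.

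**Figure D4:**
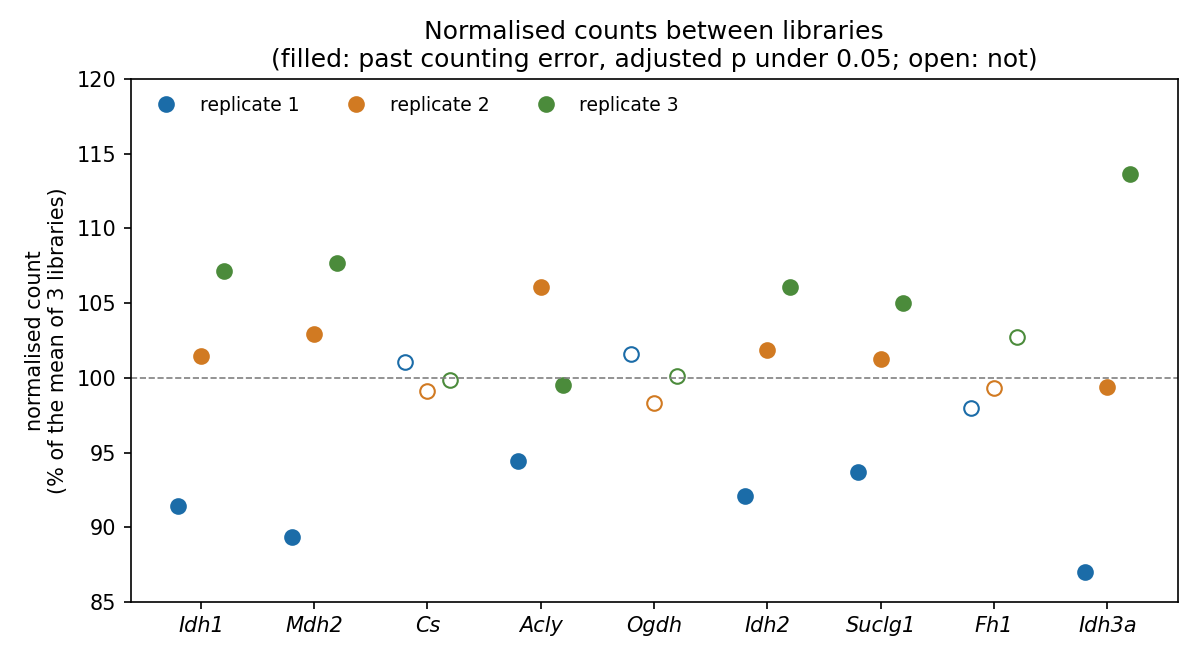
TMM-normalised count of each member in each library as a percentage of the member's mean over the 3 libraries, filled where the chi-square test called the gene and open where it did not. Replicate 1 lies lowest for 7 members, down to 87.0% for Idh3a, while those of Cs lie nearest to the mean, with 99.1% as the lowest.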

How the data were processed

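For every library the authors deposited a gene table and 2 transcript tables built, per the file headers, with assembly mm10 and the M21 annotation. Gene tables and those of the first transcript quantification hold expected counts and TPM made by the authors from transcriptome alignments. The gene table also gives the authors' posterior mean TPM and TPM interval bounds, a deposited signal on the TPM scale of unstated level. The second transcript table gives the authors' estimated counts and TPM, made straight from the reads. No source used here names the aligner, the quantifiers or the strandedness. TPM divides by effective length and fixes the library total, so the value of each gene depends on all other RNAs counted.

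Entries other than annotated genes (0.449%, 0.203% and 0.141% of counts) stayed out of library sizes and tests. Levels of genes were compared as TPM or log2(TPM + 1), within libraries, by exact sign-flip permutation tests, two-sided. Rounded counts were tested between libraries by chi-square (2 degrees of freedom) against TMM effective library sizes where a gene's counts summed to at least 30, with Benjamini-Hochberg adjustment over all genes at 0.05. The procedure was tested on simulated data. It covers counting error only, since reads are not independent molecules. Symbols with 2 entries (Nnt, Aldoa) were summed, and all 127 list genes matched, 1 of which counts in its list but is not reported here by itself. Members and lists were chosen with earlier results of these data known. Named were all members, genes of lists of up to 13 genes with a role tied to a member, the 4 highest and 3 lowest of a longer list, overlapping genes or copies with a count, and transcripts at a mean share of 10% or more. Alternatives varied the pseudocount, count filter, size factors, quantification, TPM scale and libraries. The statistics were computed in R 4.3.3 with edgeR 4.0.16 and DESeq2 1.42.0 (size factors only), and in Python 3.11.15 with pandas 2.3.3, numpy 2.4.6, scipy 1.17.1 and, for plots, matplotlib 3.10.9.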

Additional observations from a re-analysis of the deposited data

How the results depend on the processing

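No paired analysis was possible because the series held 1 group. Of the values that answer a comparison, 50 kept their direction and their side of any threshold under the alternatives or, without a test, stayed within the spread or count limit, 4 moved and 1 reversed. For within-library differences, here and below, part of this was fixed in advance. The p of the exact sign-flip permutation test could not fall under 0.25, so no threshold could be passed. Another pseudocount or a rescaling cannot turn the sign between 2 genes. Leaving out 1 library cannot turn a sign that all 3 share. The tally is therefore no measure of robustness for these differences. Direction alone did not keep the size: members minus other cycle genes was 0.30 (log2) and 0.089 with genes averaging at least 1 TPM, and Acly minus Cs ranged from -0.15 to -0.060 when 1 replicate was left out. The median member level of 23.3 TPM was 10.9 TPM in the second quantification and 96.0 TPM when TPM was rescaled over protein-coding genes, since protein-coding genes took 23.6%, 23.5% and 25.6% of the first TPM scale and 17.2%, 8.95% and 8.11% of the second in replicates 1, 2 and 3. Acly minus Cs (log2) turned to 0.010 in the second quantification. Leaving out each replicate in turn gave 3 to 6 members and 3514 to 5358 genes called by the chi-square test, with the fewest without replicate 1; fewer libraries also give fewer counts. Of the values of single genes, exons and pairs, 154 met the same terms, 21 moved, 2 passed the threshold and 7 lost it. The 154 include Mdh2 minus Mdh1, which kept its sign but was 0.41 in the first and 0.011 in the second quantification, with p = 1 by the exact sign-flip permutation test. Idh2 and Mdh2 lost it without replicate 1 (adjusted p = 0.257 and 0.142 by chi-square test), as did Suclg1 (0.529), which also lost it with no filter on low counts (0.0709). The chi-square test sets the differences among these 3 libraries against counting error only, and 506 counts for Idh3a in replicate 1 were the fewest of any member.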
